A study of Mus musculus with 18 samples.

Results

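Exon usage was compared between 3 Dicer null (Dicer -/-) and 3 wild-type samples of MEFs, fibroblasts cultured from mouse embryos, measured at the exon level on Affymetrix Mouse Exon arrays. The comparison took in 205449 of the 229581 probe sets of the exon-level table. These carried exactly 1 gene symbol and lay in 14519 genes with 4 or more such probe sets (median 12 per gene, range 4 to 121). At that limit, 773 genes with 4 probe sets were just inside and 688 genes with 3 were just outside. Exon usage was read as a splicing index, which subtracts from each probe set's log2 value the median over its gene's probe sets within that sample, so that a difference of 1 is 2-fold relative to the gene. Dim genes and dim probe sets were left out of the test, which left 114158 probe sets of 7832 genes, or 55.6% of the compared probe sets. The series holds 18 samples in all, a gene-level and an exon-level sample for each of 9 arrays. The 3 AGO2 null (AGO2 -/-) exon-level samples entered the estimate of spread and the mean level used to leave out dim genes and probe sets, and their values are named as such where given. All lines had been cultured for 3 days, in medium holding 7% serum, until subconfluent. The labels call the replicates biological but name no separate cultures, lines or animals for them. The spread that the p-values measure is thus that of these samples and may be technical, and the genotype cannot be told apart from other differences between 2 cell lines.

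Dicer is the ribonuclease that cuts hairpin precursors into mature microRNAs, which Argonaute proteins then use to find complementary RNA. The series title links Argonaute proteins to chromatin silencing and to alternative splicing, the joining of different exons of a gene into different messenger RNAs. An exon array reads single exons or parts of them, so an exon that is skipped, or that belongs to another start or end of the transcript, can depart from the other probe sets of its gene. The sources used here do not place the probe sets on exons, so a difference is reported by probe set number and not as a named exon or splicing event.

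The arrays differed little in overall level, with sample medians of 6.93 to 7.07 (log2). Across probe sets, the correlation was 0.981 to 0.989 between arrays of a line and 0.931 to 0.933 between the lines. Markers of fibroblasts were only partly present in the Dicer null line: 8 of 15 had a gene median at or above the level minimum of 6.69 in Dicer null cells, against 15 of 15 in wild-type cells. Vim, an intermediate filament protein of mesenchymal cells, had a gene median of 11.87 in Dicer null, against 11.94 in wild-type cells. Postn, a secreted matrix protein, had 4.04 in Dicer null, against 10.31 in wild-type cells, and Thy1, a surface protein of fibroblasts, had 5.64 in Dicer null, against 9.43 in wild-type cells. Dcn, the matrix proteoglycan decorin, went the other way, with 12.04 in Dicer null, against 10.85 in wild-type cells. The keratin genes Krt8, Krt18 and Krt19 had medians of 9.90, 11.33 and 9.05 in Dicer null cells, against 6.78, 7.22 and 5.84 in wild-type cells. Of all 12 epithelial markers, 5 reached the minimum in Dicer null cells, against 2 in wild-type cells, and Epcam, Cdh1, Krt5, Cldn3, Cldn7, Ocln and Esrp1 were below it in both lines. Of leukocyte markers 1 of 10 was above the minimum in each line, and of endothelial markers 0 of 8 were in Dicer null and 1 of 8 in wild-type cells. Neural markers were above it for 2 of 10 in Dicer null and 4 of 10 in wild-type cells, and muscle markers for 3 of 7 in Dicer null and 2 of 7 in wild-type cells. The part of these differences in the index results was not tested, and in bulk RNA fewer cells of a type and less RNA per cell cannot be told apart.

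Dicer1, the gene targeted in the Dicer null line, was tested with all of its 40 probe sets. Its gene median was 8.20 ± 0.07 in Dicer null, against 8.88 ± 0.09 in wild-type cells (SD, n = 3 each). By their own log2 values, 33 of the 40 probe sets fell and 1 rose. Against all tested probe sets, of which 37.5% were called by their own value (17.2% higher, 20.3% lower), this was a gene with most probe sets read lower. Over all probe sets the split of own calls turned with quantile normalization, to 23315 higher and 20248 lower, against 19655 higher and 23145 lower as deposited.

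One Dicer1 probe set, 4609131, departed from the rest of the gene. Its log2 values were 6.22, 5.94 and 6.01 in Dicer null samples, against 8.76, 8.78 and 8.91 in wild-type samples. Its index fell by 2.08 (SE 0.14, adjusted p = 5.95e-05), and the 2 groups lay far apart. A second probe set, 4614288, had 6.27, 6.03 and 5.79 in Dicer null against 7.46, 7.96 and 7.82 in wild-type samples, and its index fell by 1.04 (SE 0.17, adjusted p = 0.00766), or by 0.60 with 50 added to the linear values. Both were down to about 6 in the Dicer null line, where the median probe set of the gene stood above 8. The opposite held for probe set 4666604, with 7.81, 7.68 and 7.67 in Dicer null against 7.04, 6.92 and 7.52 in wild-type samples: its index rose by 1.25 (adjusted p = 0.00214), and so did its own value. The last call, probe set 5363356, had values near 5.6 in both lines and an index difference of 0.59 (adjusted p = 0.0181). That call was lost without Dicer null replicate 1 or 2 (adjusted p = 0.0725 and 0.0685) and without wild-type replicate 2 or 3 (adjusted p = 0.0573 and 0.0516).

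**Figure D1:**
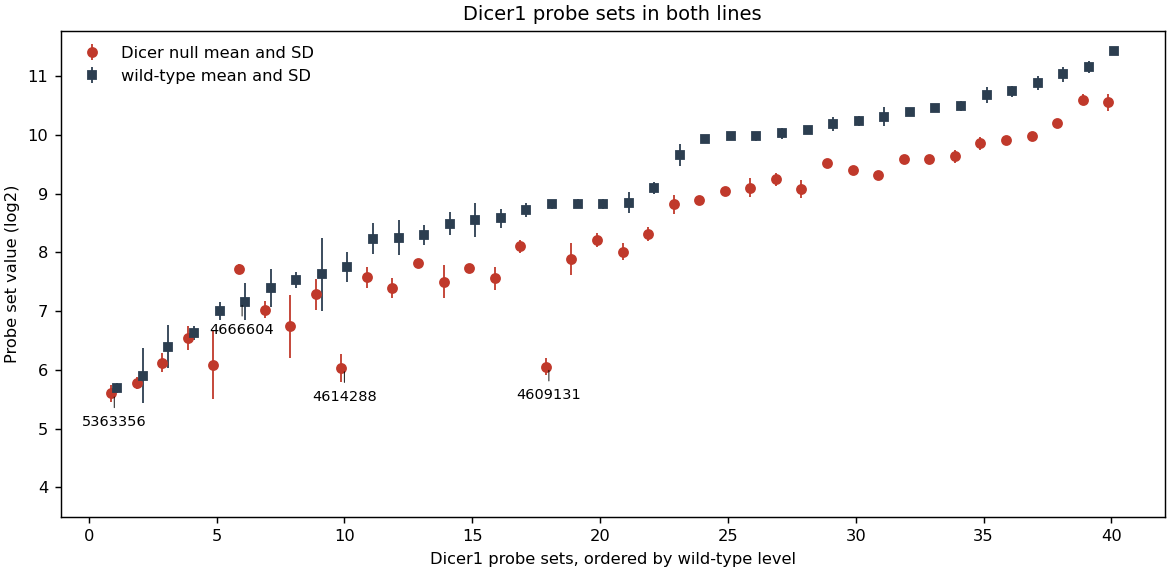
Mean log2 value with SD (n = 3) of each of the 40 Dicer1 probe sets in Dicer null (circles) and wild-type (squares) samples, ordered along the x axis by the wild-type mean. Most Dicer null means sit somewhat below the wild-type mean, while probe sets 4609131 and 4614288 sit about 6, far below their neighbours.

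Ago2, which encodes the Argonaute that cuts its targets, was read higher at most of its probe sets, with a gene median of 9.05 ± 0.18 in Dicer null, against 8.02 ± 0.03 in wild-type cells (SD, n = 3 each). The values of 18 of its 21 probe sets rose and none fell. Only 1 of the 21 had a called index, which fell.

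Across all genes the index of 7727 probe sets was called at an adjusted p under 0.05 (limma, Benjamini-Hochberg adjustment over the 114158 tested), or 6.77%. Of these, 3731 rose (3.27%) and 3996 fell (3.5%), and 2844 (2.49%) differed by at least 1. They lay in 2595 genes, 33.1% of the genes tested. Without any 1 of the Dicer null replicates the count was 4741 to 4871, and without any 1 of the wild-type replicates it was 5974 to 6625.

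The index calls were concentrated in genes whose overall level differed between the lines. In genes whose median was lower in Dicer null cells by 2 or more, 48.3% of tested probe sets were called, against 2.63% where it was lower by under 0.5. On the other side the shares were 43.7% in genes higher by 2 or more and 2.21% in genes higher by under 0.5. Many of the genes that differed most passed the level filter through 1 line only. With genes required to reach the minimum in both lines, 3886 probe sets were called in all, and the shares in the 4 groups of genes were 27.6%, 1.96%, 31.8% and 1.47%. Because the index subtracts the gene level, a probe set whose signal stays put while its gene falls must rise in index. For the same reason an index fall in a gene that is lower by at least 1 must come with a lower own value, so such pairs are fixed by the arithmetic.

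In the 552 genes lower by at least 1, 32.9% of probe sets had a called index. The index of 1464 rose, and the own value of only 3 of these rose with it, while 936 had an own value that fell and 525 had one that was not called. The other 1048 fell in index. In the 365 genes higher by at least 1, 28.9% were called, with 607 index rises and 1004 index falls. Of the falls, only 2 came with a fall of the own value, 600 came with a rise and 402 with a value that was not called. In all, 3741 called probe sets (3.28% of those tested) changed in the same direction by index and by own value, 1683 changed in opposite directions, and for 2303 the own value was not called. The 3741 became 2267 to 2345 without any 1 of the Dicer null replicates.

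**Figure D2:**
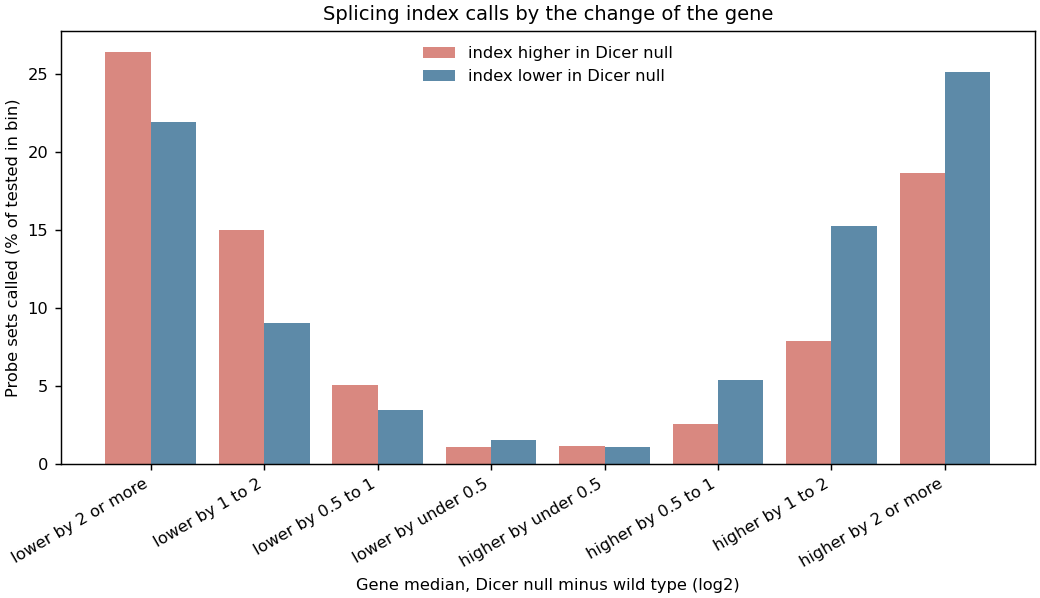
Share of tested probe sets (% of each bin) whose index was called higher or lower in Dicer null than in wild-type cells, by the difference of the gene's median (Dicer null minus wild type, log2). The bars are tallest at both ends, where index rises lead in genes that are lower in Dicer null cells and index falls lead in genes that are higher.

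Such cases are among the 6 largest index differences (3 each way). Prrx1, a homeobox gene of limb and connective tissue mesenchyme, had a gene median lower by 5.57 in Dicer null cells. Its probe set 5434446 had values of 7.29, 7.25 and 7.27 in Dicer null against 7.70, 7.57 and 7.67 in wild-type samples, so an own difference of only −0.38 gave an index difference of 5.19 (adjusted p = 1.65e-07). Probe set 4467767 of Rbp4, the retinol carrier, had an index difference of 5.04 with a gene median lower by 5.30 and an own difference of −0.26 (adjusted p = 0.398 for the value). Probe set 5611720 of Tnnt2, the troponin T of heart muscle, had 6.92, 6.82 and 6.95 in Dicer null against 6.89, 7.16 and 6.98 in wild-type samples, and an index difference of −5.04 in a gene higher by 4.93. These 3 probe sets were nearly as bright in one line as in the other.

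The remaining 3 differed in their own signal too. Probe set 5347065 of Zfp503, a zinc finger gene, had values of 4.39, 4.02 and 3.63 in Dicer null against 11.03, 11.00 and 10.95 in wild-type samples, an index difference of −5.92 in a gene lower by 1.06. Probe set 4428169 of Col11a1, a fibrillar collagen, had 3.15, 3.48 and 3.00 in Dicer null against 10.71, 10.33 and 10.55 in wild-type samples, an index difference of −5.73 in a gene lower by 1.58. For both, all Dicer null samples lay well below the level minimum set for probe sets (5.43), and all wild-type samples far above it. The third, in Psmb5, belongs to the group described next.

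A narrower group was formed of probe sets with a called index difference of at least 1, an own value called in the same direction, samples that did not overlap between the lines in the index, and a gene median differing by less than 1. It held 480 probe sets, 0.42% of those tested, of which 185 were higher and 295 lower, in 312 genes. At these limits the arithmetic fixes the direction of the own value too, so the shared direction adds no support. The condition on the own value only left out probe sets whose own value was not called. Without it and the condition on overlap, 555 probe sets qualified. Its size depended on how dim signals were treated. Counted without the condition on overlap, which removed none of the 480, it was 1180 without the filter on low values. Counted in that way, it was 314 with 50 added to the linear values, and 83 (42 higher and 41 lower) with a stricter filter. Groups that did not overlap in the index were common in general, at 25.9% of tested probe sets. In 227 of the 312 genes a single probe set qualified, in 47 genes 2 did and in 38 genes 3 or more. Their index differences ran from −4.63 to 5.27 with a median size of 1.29, and 59 reached a size of 2 and 19 a size of 3. The gene-level table of the same arrays had a row for 453 of them, and there the gene differed by less than 1 for 385, was lower in Dicer null by at least 1 for 59 and higher by at least 1 for 9.

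The largest rise was in Psmb5, a catalytic subunit of the proteasome. Its probe set 5037994 had 9.25, 9.28 and 9.27 in Dicer null samples, against 3.89, 4.10 and 3.91 in wild-type samples. The index rose by 5.27 (SE 0.10, adjusted p = 1.65e-07), while the gene median was 10.51 in Dicer null, against 10.48 in wild-type cells. All Dicer null samples were thus bright and all wild-type samples below the probe set minimum, in a gene whose medians differed by 0.03.

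Next came Fbxl5, an iron-sensing part of a ubiquitin ligase, whose probe set 4506231 had 8.65, 9.04 and 8.80 in Dicer null against 3.45, 3.33 and 3.67 in wild-type samples. The index rose by 4.73 (SE 0.17, adjusted p = 3.58e-06). Probe set 5233615 of Rint1, which takes part in transport between Golgi and endoplasmic reticulum, had 7.59, 7.23 and 6.72 in Dicer null against 2.70, 3.83 and 2.48 in wild-type samples. Its index rose by 4.12 (SE 0.43, adjusted p = 0.000642), with a wider spread in the wild-type samples (SD 1.02) than in the Dicer null samples (SD 0.35). Probe set 4927089 of Ptdss1, a phosphatidylserine synthase, had 7.40, 7.18 and 7.76 in Dicer null against 2.83, 3.77 and 4.09 in wild-type samples, and its index rose by 3.88 (SE 0.34, adjusted p = 0.000266). The gene medians of Rint1 and Ptdss1 differed by 0.05 or less.

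The rest of the 12 largest rises lay between 2.28 and 3.61. They were in Scfd1, a Sec1 family protein of vesicle transport, Mboat2, a phospholipid acyltransferase, Tmem18, a protein of the nuclear membrane, Heatr5a, the vasopressin receptor Avpr1a, the RING finger gene Rnf150, Uqcrb, a subunit of respiratory complex III, and Pkia, an inhibitor of protein kinase A. The smallest of them, probe set 4860587 of Pkia, had 6.76, 6.67 and 6.65 in Dicer null against 4.41, 3.90 and 4.17 in wild-type samples. With the gene mean subtracted in place of the median its index difference was 1.09 (adjusted p = 0.00199). Its gene-level row was higher by 1.18, so its gene met the limit on the gene difference by the exon medians only. Avpr1a was dim in both lines compared, with gene medians of 6.42 (Dicer null) and 5.64 (wild type), under the gene minimum of 6.69. It was tested because the filter used the mean over all 9 samples, which took in the AGO2 null samples.

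The largest fall was in Irx2, a homeobox transcription factor of the Iroquois family. Its probe set 5348146 had 2.27, 2.38 and 2.18 in Dicer null samples, against 8.08, 7.25 and 7.86 in wild-type samples. The index fell by 4.63 (SE 0.21, adjusted p = 7.37e-06) in a gene whose median differed by −0.82. Its Dicer null values were far below the probe set minimum, and with 50 added to the linear values its difference was −1.70, against −3.66 for Metap2 and −3.33 for Kctd12, so its rank changed with the treatment of dim signals. Metap2, a methionine aminopeptidase that trims new proteins, followed: probe set 4566345 had 5.73, 6.04 and 5.34 in Dicer null against 10.14, 9.75 and 10.14 in wild-type samples. The index fell by 4.57 (SE 0.13, adjusted p = 1.83e-06), and the gene median was 11.43 in Dicer null, against 11.17 in wild-type cells. The Metap2 probe set was dimmer than its gene in both lines, and by far more so in the Dicer null line.

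Kctd12, an auxiliary subunit of GABA-B receptors, had 5.18, 5.51 and 4.86 at probe set 4916646 in Dicer null against 9.70, 9.75 and 10.06 in wild-type samples. Its index fell by 4.46 (SE 0.31, adjusted p = 7.58e-05) and passed from above the gene median in wild-type to below it in Dicer null samples. Pdhb, a subunit of pyruvate dehydrogenase, had 4.03, 4.49 and 4.64 at probe set 5510618 in Dicer null against 8.38, 8.07 and 8.14 in wild-type samples, and its index fell by 3.75 (adjusted p = 7.42e-06). Probe set 5552682 of Dlc1 had 4.51, 4.02 and 3.68 in Dicer null against 7.83, 7.87 and 7.91 in wild-type samples, a fall of 3.56 (adjusted p = 7.24e-06). In these 3 genes as well, every Dicer null sample lay at least 3 log2 units below every wild-type sample by value.

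The rest of the 12 largest falls lay between 2.92 and 3.67 in size. They were in 3830406C13Rik, the homeobox genes Hoxb6 and Evx2, the cartilage collagen Col2a1, Cse1l, which exports importin alpha from the nucleus, the transcription factor Bhlhe22, and P3h3, of the prolyl 3-hydroxylase family. At Cse1l probe set 4980334 the values were 7.82, 8.31 and 7.79 in Dicer null against 11.78, 11.62 and 11.65 in wild-type samples, the brightest of the 12 in the wild-type line. The P3h3 gene-level row was lower by 1.38, against −0.95 by exon median.

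**Figure D3:**
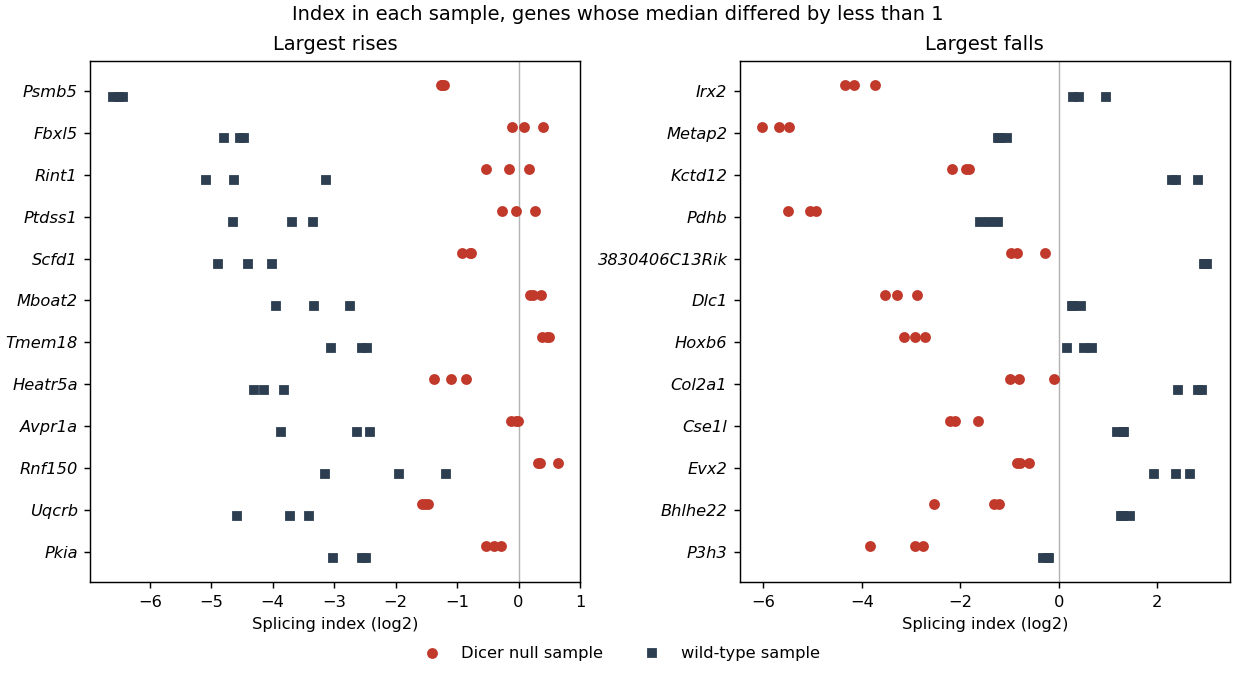
Splicing index (log2, value minus gene median) in each of the 3 Dicer null (circles) and 3 wild-type (squares) samples for the 12 largest rises (left) and the 12 largest falls (right) in genes whose median differed by less than 1. In each of the 24 probe sets the samples of the lines are separated, which the choice of the group required. The largest mean differences are in Psmb5 (5.27) and in Irx2 (−4.63, or −1.70 with 50 added to the linear values).

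All 24 of these calls held in each fit that left out 1 sample. They were chosen as the largest differences without overlap in these same samples, so this is no independent support. Adding 50 to the linear values before the logarithm, which damps dim signals, made 15 of the 23 differences still tested smaller by more than 1.5 times, to 0.78 for Avpr1a at the least, without ending a call. Among the 480, 57 of the 295 lower probe sets averaged below the probe set minimum of 5.43 in Dicer null cells, and 58 of the 185 higher ones did so in wild-type cells. By the mean index over all 9 samples, 157 of the 295 lower ones were at or above their gene's median, as were 59 of the 185 higher ones.

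Several genes held more than 1 probe set that moved together. In Scfd1, 3 of 27 tested probe sets rose in index, by 3.61, 2.92 and 2.51, and 1 fell by 0.41. The brightest of the risers, 4786973, had 10.25, 10.29 and 10.28 in Dicer null against 7.94, 7.01 and 8.07 in wild-type samples. The gene median of Scfd1 was 9.49 in Dicer null, against 9.82 in wild-type cells. Tmem18 likewise had 3 of 14 tested probe sets with an index that rose, by 3.14, 2.92 and 2.86, and 1 that fell by 0.97. Probe set 4380996 of Tmem18 had 9.07, 9.19 and 9.19 in Dicer null against 6.17, 6.56 and 5.43 in wild-type samples, while the gene-level row was equal in the lines, with a difference of 0.00.

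Map3k7, the kinase TAK1 of TGF-beta and inflammatory signalling, had calls in both directions in a gene of nearly equal level. Probe set 4636504 had 9.15, 9.13 and 9.21 in Dicer null against 8.35, 7.95 and 8.35 in wild-type samples, and its index rose by 1.26 (adjusted p = 0.000406). Probe set 5550079 had 8.45, 8.38 and 8.16 in Dicer null against 9.95, 9.68 and 9.62 in wild-type samples, and its index fell by 1.11 (adjusted p = 0.00882). Of its 22 probe sets, 4 rose and 2 fell in index. Slc1a3, a glutamate transporter, also had calls both ways: of 11 tested probe sets 5 rose and 3 fell, with a gene median of 7.65 in Dicer null, against 7.58 in wild-type cells. Its probe set 5540920 had 9.34, 9.38 and 9.21 in Dicer null against 7.72, 8.04 and 7.87 in wild-type samples, while 4393657 had 7.56, 7.77 and 7.67 in Dicer null against 8.47, 8.79 and 8.84 in wild-type samples. Scfd1, Tmem18, Map3k7 and Slc1a3 were singled out as sets of probe sets after their values were seen.

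Genes with at least 2 probe sets called at a difference of 1 or more in each direction and a gene median differing by less than 1 numbered 3. Igsf9, an immunoglobulin superfamily protein of the cell surface, had 6 risers and 9 fallers among 28 tested probe sets, with index differences from −1.28 to 1.95. By own value, 19 of the Igsf9 probe sets rose and only 1 fell. Ltbp2, a matrix protein related to fibrillins, had 13 risers and 4 fallers among 42, but none of its probe sets rose in its own value. Col4a5, a basement membrane collagen, had 12 risers and 7 fallers among 47, and 26 of its probe sets rose in their own value while 1 fell. Their gene medians differed by 0.98, −0.84 and 0.73.

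Cd44, a surface receptor for hyaluronan with a well known block of alternative exons, had 9 of 16 tested probe sets with an index that fell, 8 of them by 1.24 to 2.16. All 9 were bright ones: in the wild-type line they averaged 9.98 or more, and the 7 not called averaged 7.32 or less. At probe set 4831599 the values were 7.27, 7.50 and 7.09 in Dicer null against 9.66, 10.04 and 10.24 in wild-type samples (adjusted p = 0.00163). Its index difference of −2.16 depended on the centre, with −1.23 when the gene mean was subtracted and −0.41 against the median of tested probe sets alone. The gene median of Cd44, taken over 20 probe sets, differed by −0.53 and its gene-level row by −1.20. By own value, 14 of the 16 tested probe sets fell and none rose, with a median difference of −1.82. Most tested probe sets were thus read lower, and the 8 large index falls are not shown to be particular to those probe sets. Fn1, fibronectin, another gene known for alternative exons, was read lower at nearly all of its probe sets: 52 of 54 own values fell. Its index was called in only 4 probe sets, 3 higher and 1 lower, none by as much as 1.

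**Figure D4:**
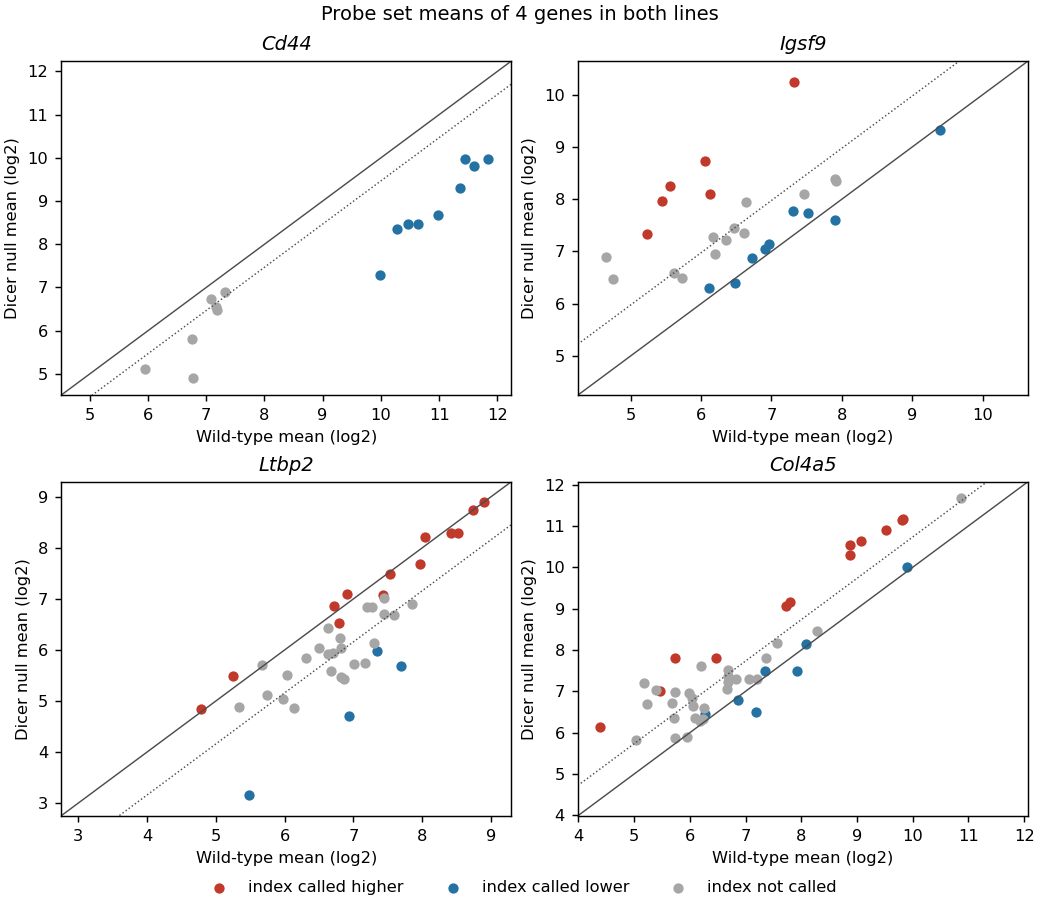
Mean log2 value of each tested probe set in Dicer null (y axis) against wild-type (x axis) cells for Cd44, Igsf9, Ltbp2 and Col4a5, coloured by the index call. The solid line marks equal values and the dotted line the difference of the gene median, and in Cd44 the 9 probe sets called lower are the bright ones.

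The brightness of a probe set went with the direction of its call even in genes whose median differed by less than 1, where 3.57% of probe sets (3604) were called, or 1684 to 1733 without any 1 of the Dicer null replicates. Of those brighter than their gene by at least 1, 1.77% rose and 3.59% fell. Of those dimmer by at least 1, 2.37% rose and 1.70% fell. Of those within 1 of the gene median, 1.41% rose and 1.53% fell.

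Gene lists were described by their share of called probe sets beside the 6.77% of all tested, and the 3.57% in genes whose median differed by less than 1, called steady here. Matrix genes had a high share: of 1082 tested probe sets, 229 rose and 162 fell in index, or 36.1%, and in steady genes 18.6%. Since 14 of 27 matrix genes were lower in Dicer null cells by at least 1, own values there fall with an index fall by construction. Of the 229 risers, 4 rose in their own value. In Col1a2, a chain of type I collagen, probe set 4818225 had 4.27, 3.70 and 4.43 in Dicer null against 11.92, 11.86 and 11.94 in wild-type samples, an index fall of 4.84 in a gene lower by 2.93. In Col12a1, a collagen bound to fibrils, probe set 4452456 had an index difference of 3.97 with nearly equal own values (difference 0.40, adjusted p = 0.108) in a gene lower by 3.56. The fibroblast markers, which share collagens with this list, had 32.6% called and 19.6% in steady genes.

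Interferon-stimulated genes had 55 of 168 probe sets called, or 32.7%, with 23 risers and 32 fallers. Of the 13 genes tested, 12 were lower by at least 1, and in the only steady one 0 of 5 probe sets were called, which left almost nothing to compare at equal gene level. Probe set 5455907 of Oasl2, an interferon-induced antiviral gene, had an index difference of 3.57 with own values near 5.8 in both lines.

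Genes of RNA silencing had 32 of 356 probe sets called, 16 in each direction, or 8.99%, and 5.50% in steady genes. Dicer1 gave 4 of these. Lin28a, which blocks the processing of let-7 microRNA precursors, was higher in Dicer null cells, with a gene median of 8.80 against 5.94 in wild-type cells. Its probe set 5238778 had 9.98, 9.98 and 9.81 in Dicer null against 4.18, 5.16 and 4.52 in wild-type samples, while 4936195 had 6.61, 6.66 and 6.85 in Dicer null against 7.10, 6.99 and 6.67 in wild-type samples. The first rose beyond its gene, by 2.45 in index, and the second did not follow the gene, with an index difference of −3.07. In Adar, an editor of double-stranded RNA, probe set 4488401 had an index difference of 1.36, with nearly equal own values (difference −0.10, adjusted p = 0.629) and a gene median lower by 1.47.

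Genes known for exons that switch between epithelial and mesenchymal cells had 9.67% of 672 probe sets called, 32 higher and 33 lower, and 6.13% in steady genes. They held 11 of the 480 narrowly defined probe sets, 8 of them from Cd44. In Ralgps2, an exchange factor for Ral GTPases, probe set 5338324 had 8.74, 8.87 and 8.53 in Dicer null against 5.09, 4.87 and 6.24 in wild-type samples, an index rise of 1.84 (adjusted p = 0.00939) in a gene higher by 1.47. The call on Epb41l5 probe set 5076286 (−1.45, adjusted p = 0.0219) came with own values that overlapped between the lines, and was lost without Dicer null replicate 2 or 3 or wild-type replicate 2 (adjusted p = 0.0818, 0.0851 and 0.0586). It was also lost when only the 6 samples compared were fitted (adjusted p = 0.0562).

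Muscle and contractile genes had 10.4% of 585 probe sets called and 5.42% in steady genes. Tnnt2 contributed 9, of which 4 rose and 5 fell in index, although 15 of its 16 probe sets rose in their own value. Its probe set 4945574 went furthest, with 11.53, 11.67 and 11.53 in Dicer null against 3.86, 3.81 and 3.75 in wild-type samples. Cytoskeletal genes had 8.05% of 1019 called and 6.30% in steady genes. In Dst, a linker of filaments and junctions, probe set 5245271 had 7.99, 7.69 and 7.96 in Dicer null against 8.37, 8.33 and 8.32 in wild-type samples, an index fall of 1.24 (adjusted p = 0.000203).

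Genes of trafficking and channels had 8.39% of 632 called but 1.28% in steady genes, below the 3.57% of all steady genes. Signalling genes had 6.03% of 730 called and 3.45% in steady genes. Among signalling genes, Igf1, insulin-like growth factor 1, had 1 riser and 4 fallers of 9 probe sets, and the riser was lost without Dicer null replicate 2 (adjusted p = 0.055). Its probe set 5467780 had 5.90, 5.52 and 6.18 in Dicer null against 10.38, 10.35 and 10.17 in wild-type samples, an index fall of 2.84 in a gene lower by 1.60. In Sema6d, an axon guidance ligand, probe set 5232121 had an index difference of −4.17 with a gene median higher by 3.98 and an own difference of −0.19.

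The lists named for the 2 themes of the series title lay below the share of all tested probe sets. Genes of chromatin and silencing had 29 of 705 probe sets called, 4.11%, and 4 of 610 in steady genes, 0.66%. Regulators of splicing had 24 of 725 called, 3.31%, and 2.48% in steady genes. Among them Qk, a STAR family RNA-binding protein, had probe set 5578676 with 6.64, 6.88 and 6.36 in Dicer null against 5.52, 5.69 and 5.13 in wild-type samples, an index rise of 0.83 (adjusted p = 0.0474). In Macroh2a1, a histone variant with 2 known splice forms, probe set 4617759 had 6.81, 6.46 and 6.91 in Dicer null against 7.70, 7.64 and 7.94 in wild-type samples, an index fall of 0.93 (adjusted p = 0.016) in a gene whose median differed by −0.10. Neither list held any of the 480 narrowly defined probe sets. These were only 0.42% of all tested, so few could fall in lists of this size. Both calls, on Qk and on Macroh2a1, depended on single samples. The Qk call was lost without Dicer null replicate 1 or 2 or wild-type replicate 2 or 3 (adjusted p between 0.11 and 0.149), with only the 6 samples compared (adjusted p = 0.0889), and with 50 added to the linear values, when its difference was 0.34. The Macroh2a1 call was lost without Dicer null replicate 1 or 2 or wild-type replicate 2 (adjusted p = 0.053, 0.0582 and 0.0558).

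**Figure D5:**
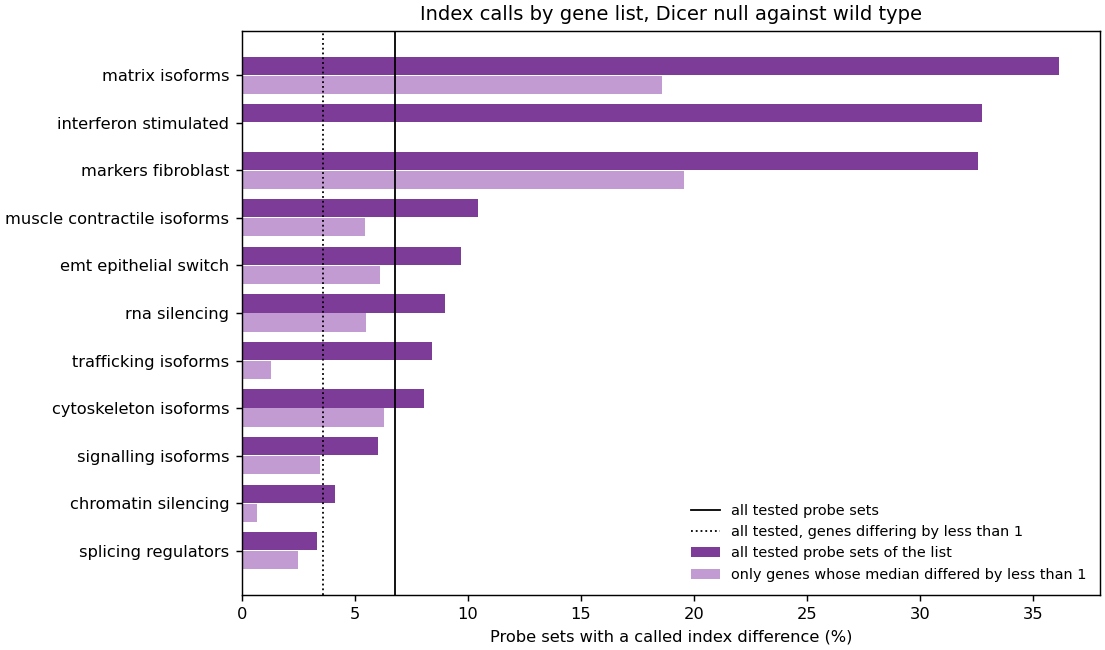
Share of tested probe sets with a called index difference between Dicer null and wild-type cells (%) in each gene list, over all genes (dark bars) and over genes whose median differed by less than 1 (light bars), with the shares of all tested probe sets as vertical lines. Matrix, interferon-stimulated and fibroblast marker genes lie far to the right of the solid line, and splicing and chromatin genes to its left.

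Marker lists of other cell types gave few tested probe sets. Epithelial markers had 18 of 40 called (9 higher and 9 lower, from 4 genes), neural markers 11 of 37, muscle markers 3 of 13 and leukocyte markers 0 of 8, and no endothelial marker was bright enough to be tested.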

How the data were processed

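The authors deposited log2 values of the exon-level table, 1 column per sample, and of a gene-level table of the same arrays. How they corrected background, normalized and summarised is not given in the sources used here. The submitters' processing notes name the genome build mm8. RNA was labelled with biotin for hybridisation, per the labels. The values were used as deposited. Symbols came from the platform annotation, updated through unique synonyms of the RefSeq GRCm38.p6 table, which was used for names only. Of all probe sets, 209279 had 1 symbol (208810 found in that table), 4446 several and 15856 none. None was named from several symbols.

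Tested were genes whose mean median over 9 samples reached the median over genes (6.69) and, among them, probe sets at or above the 25th percentile of the table (5.43). limma 3.58.1 in R 4.3.3 (lmFit, eBayes) was fitted to the splicing index, and separately to the log2 values, of all 9 exon-level samples with group means only. Benjamini-Hochberg adjustment ran over the 114158 tested probe sets, with calls at an adjusted p under 0.05. The script was tested on simulated data, where 33% of 100 changes of 1 (log2) were recovered, and 91% of 100 changes of 2. Differences near 1 can thus go uncalled. The same test made 14 false calls among 114158 probe sets, so some calls may be false. The number of arrays, 3 per line, limits the precision. In the gene-level table the row with the highest mean stands for a symbol, with differences given untested.

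The probe sets compared and the gene lists were chosen with earlier results of these data known. Named are Dicer1 and Ago2. Also named are the 12 largest rises and falls among calls with an index difference of at least 1, an own value called the same way, no overlap and a gene median differing by less than 1, with 1 per gene. The 3 largest rises and falls without those conditions were added, then up to 2 each way per list, genes with calls in both directions, and Cd44 and Fn1 as counts. Same-numbered samples are not linked by the labels. For replicates 1, 2 and 3 their deviations correlated at −0.03, −0.12 and −0.04 by index, and at −0.03, −0.14 and −0.05 by value. Alternatives covered the samples in the fit, the filter, the gene centre, quantile normalization, an offset of 50, the trend option, the replicate block and each sample left out.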

Additional observations from a re-analysis of the deposited data

How the results depend on the processing

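The counts kept within 1.5 times of their values under most alternatives, and the exceptions follow. Under all alternatives the narrow group was counted without the condition on overlap. Without the filter on low values, 5660 probe sets were called with a difference of at least 1, against 2844, and the narrow group held 1180, against 480. A stricter filter (75th percentile of genes, 50th of probe sets) gave 2767 index calls, 538 with a difference of at least 1, 1528 in steady genes, 1197 with the own value called the same way, 414 in the gene lists, 25196 by own value and 83 in the narrow group. It tested fewer probe sets, and 22 of the 80 named differences. An offset of 50 gave 5577 calls in steady genes and 314 in the narrow group. Restricting the genes to those at the level minimum in both lines, a choice made after seeing the data, gave 3886, 1056, 2380 and 1919 for the first 4 of these counts and 385 in the lists. Over the fits that left out 1 sample each, index calls ranged from 4741 to 6625, calls in steady genes from 1684 to 3034, calls with the own value the same way from 2267 to 3232, and the narrow group from 394 to 500. The fit with the replicate block gave 6465 index calls and changed no count by over 1.5 times, but the named calls on Qk probe set 5578676 (adjusted p = 0.0511) and a Tnnc1 probe set were lost. One named difference reversed: Oasl2 probe set 5244036 had −1.70, and 0.38 (adjusted p = 0.27) with the offset of 50; the cause was not tested. Fitting only the 6 samples compared ended 6 of the 80 named calls, among them Epb41l5, Qk and both Tnnc1 probe sets. Of Tnnc1, probe sets 4590156 and 4678058 lost their calls in several of these fits. Dim probe sets limit what can be read: an index difference with 1 line below 5.43 has an uncertain size.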

Other observations

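Further genes held 5 or more probe sets of the narrow group, and were singled out after their values were seen. Col5a1, a fibrillar collagen chain, had 11, all lower in Dicer null cells, with index differences from −1.51 to −1.01 in a gene whose median differed by −0.25. Loxl3, a lysyl oxidase family enzyme that crosslinks matrix, and Ltbp4, a binding protein of latent TGF-beta, had 7 each, all lower. The gene-level row of Loxl3 differed by −1.39, against −0.86 by exon median. Ifi27, an interferon-inducible gene, had 6 lower ones. Its gene median was 7.62 in both lines, while its gene-level row differed by −1.93. Eln, elastin, had 5 lower and 29 that were not in the group, and the lowest index difference was −2.25. Its gene medians of 6.325 (Dicer null) and 6.693 (wild type) were under the gene minimum (6.695), the wild-type one only just. Like Avpr1a, Eln was tested because the filter used the mean over all 9 samples. Cap2, Grin2d, Map1b, P3h3 and Tspan13 had 5 each, also all lower. For Cap2, Map1b, P3h3 and Tspan13 the gene-level rows differed by −1.40, −1.48, −1.38 and −1.45, against −0.73, −0.47, −0.95 and −0.61 by exon median, so for these, as for Loxl3, the 2 readings of the gene stood on different sides of the limit of 1.

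The AGO2 null samples belong to no comparison here, and their mean values were read beside those of each line. Among the 12 largest rises, the AGO2 null mean was nearer the Dicer null mean at every probe set but that of Rnf150. There it was 5.25, with 7.50 for Dicer null and 4.53 for wild-type samples. At Avpr1a it lay above both, at 10.21, with 6.36 for Dicer null and 2.67 for wild-type samples. Among the 12 largest falls it was nearer the wild-type mean at every probe set but those of Col2a1 and Evx2. Psmb5 probe set 5037994 had 9.70, 9.63 and 9.79 in AGO2 null samples, near its Dicer null values. Tmem18 probe set 5282519 had 7.57, 7.66 and 7.15 in AGO2 null samples, also near its Dicer null values. Metap2 probe set 4566345 had 10.58, 10.62 and 10.76 in AGO2 null samples, nearer its wild-type values, and Dicer1 probe set 4609131 had 8.67, 9.04 and 8.75, as in wild-type samples. Eln probe set 5500628 had 4.14, 3.44 and 4.26 in Dicer null, 10.60, 10.28 and 9.98 in AGO2 null, and 6.72, 6.68 and 6.29 in wild-type samples. The examples with sample values were picked after their values were seen, and no test was run on any of these AGO2 null values.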
